A study of Mus musculus with 4 samples.

Results

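The genes described here carry antigen presentation by major histocompatibility complex (MHC) class I molecules. They are the heavy chains H2-K1, H2-D1 and H2-T23, the light chain B2m, the peptide transporter subunits Tap1 and Tap2, the loading factor Tapbp, the peptidase Erap1 and the transactivator Nlrc5. Probes were chosen by gene name, old or current, among probes that are not controls. This gave 9 of 49826 gene names, with 15 probes of 61307, printed as 22 of 61657 probe spots per array. The rule itself uses names only; the genes were listed with earlier results of these data known.

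RNA came from C3H10T1/2 cells, a mouse embryo fibroblast line that can be transformed in culture by chemicals. All cells, both groups, had received the carcinogen MCA (3MC in the protocol) at 2.5 µg/ml for 2 days. They then had the phorbol ester TPA at 100 ng/ml, 2 times a week for 2 weeks, and 4 weeks without it. The 2 DEM samples were these cells after 0.25 mM of DEM (diethyl maleate), an electrophile that binds glutathione, and the 2 untreated samples were the transformed cells without DEM. The title of the series places the comparison in the study of how DEM acts on growth of transformed cells. The sources used here do not give the exposure time, cells without transformation were not analysed here, and the labels name no clone. Each sample was hybridised to 1 one-colour Agilent array (n = 2 arrays per group). Whether replicate arrays stem from separate cultures is not in the labels, and p-values cover only the spread between these samples, possibly a technical one.

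Levels are background-corrected signals on the log2 scale, less the array's own 75th percentile, so 0 marks that percentile. The 75th percentile signal was 449.9 and 412.5 on the DEM arrays and 701.3 and 747.2 on the untreated arrays. The share of spots well above background, as marked by the scanner software, was 49.2% and 47.8% with DEM and 52.3% and 52.7% in untreated cells. All 4 arrays lay on 1 slide, with the DEM arrays in row 2 and the untreated arrays in row 1, so slide row and treatment cannot be told apart. The SD of the difference between replicate arrays was 0.517 for the DEM pair and 0.332 for the untreated pair. Across all genes the median change with DEM was 0.16 on the log2 scale.

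All 11 fibroblast markers were measured, but Fap and Lum were well above background on the untreated arrays only. Fap had levels of -6.38 and -6.44 with DEM, and Lum of -6.53 and -6.41. The summed linear level of the 11 was 841.3 and 1248 on the DEM arrays and 1550 and 1610 on the untreated arrays. Of the 11, 7 passed the test as lower with DEM, as did 11.8% of all genes. Only 3 of 14 leukocyte markers were measured, none of which passed (0 at an unadjusted p under 0.05, limma), and the pan-leukocyte gene Ptprc and the T-cell genes Cd4 and Cd8a were not well above background. The leukocyte sum was 0.17 and 0.237 with DEM and 0.188 and 0.237 in untreated cells. The macrophage sum, over 3 of 8 markers, was 4.53 and 6.16 with DEM and 4.1 and 4.9 in untreated cells, and 1 of the 3, Lyz2, passed as lower with DEM (-1.85; limma, adjusted p = 0.0141). The 1 measured endothelial marker of 6, Tek, summed to 0.0163 and 0.0114 with DEM and 0.0646 and 0.067 in untreated cells. Tek passed as lower (limma, adjusted p = 0.0114). It was well above background on the untreated arrays only, so the decrease is given as at least 1.23-fold. The 3 measured epithelial markers of 6 summed to 0.304 and 0.204 with DEM and 0.206 and 0.282 in untreated cells. The part of the lower fibroblast markers in the results below was not tested. In a bulk sample, fewer cells of a kind and less RNA per cell cannot be told apart.

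MHC class I molecules display short peptides from a cell's own proteins to CD8 T cells. Proteasomes cut the peptides, the TAP transporter, made of Tap1 and Tap2, pumps them into the endoplasmic reticulum, Erap1 trims them there, and tapasin (Tapbp) holds the empty heavy chain and B2m at the transporter until a peptide binds. In fibroblasts the pathway is active at rest and increases under interferon, through IRF and STAT factors and through Nlrc5, which acts at class I promoters together with the RFX, CREB/ATF and NF-Y factors.

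The heavy chain genes are close copies of each other, so the sequences of their probes bear on how far a signal belongs to 1 gene. Shown are coding probes of the 3 heavy chain genes, 5′ to 3′, with the longest run shared with a probe of another gene in capitals.
H2-K1, shared with H2-Q10: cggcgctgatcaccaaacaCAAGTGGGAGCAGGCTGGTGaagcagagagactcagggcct
H2-K1, shared with H2-Bl: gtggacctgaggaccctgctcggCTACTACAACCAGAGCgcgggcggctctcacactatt
H2-D1, shared with H2-Q2: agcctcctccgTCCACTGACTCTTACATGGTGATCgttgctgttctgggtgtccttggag
H2-T23, shared with H2-Q7: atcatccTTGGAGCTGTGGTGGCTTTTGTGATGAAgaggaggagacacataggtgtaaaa
The shared runs are 20, 16, 24 and 28 bases of 60. Aligned without gaps, the same pairs of probes were identical at 40, 46, 47 and 50 bases. The brightest H2-K1 probe, which stands for the gene in the values below and is not shown, shared 29 bases with a probe for LOC100045864. The longest run between probes of 2 different genes among H2-K1, H2-D1 and H2-T23 was 9 bases. Probes of the same gene shared no more, at most 6 bases for H2-K1 and 5 for H2-D1. Such runs depend on where the probes lie, so they cannot show whether the 3 genes are told apart. Probes were compared with probes only, and their match to transcripts of relatives was not tested. Given the runs shared with other class I genes, the signal named for each of these genes may hold RNA of its relatives. Mice of the C3H strain carry another H2 haplotype than the C57BL/6J reference, and the match of the probes to C3H alleles was not tested. No probe of B2m, Tap1, Tapbp, Erap1 or Nlrc5 shared a run of 15 or more bases with a probe of another gene, and the Tap2 probe shared 17 with probes of Pramel16 and Pramel28.

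Promoter sequences from RefSeq (GRCm38.p6), 250 bases before to 50 after the transcript start, were on hand for 7 of the 9 genes (not for Tap2 and Nlrc5). They were searched on both strands for letters of the factors above. The upstream 250 bases of the 3 heavy chains and B2m are shown, 5′ to 3′ on the gene's strand, because each heavy chain forms a cell-surface complex with B2m. Capitals mark matches to AANNGAAA (IRF) and GGGNNTTNC (the first 9 letters of a kappaB site) on either strand.
H2-K1 promoter, chr17:34000348-34000597 (minus strand): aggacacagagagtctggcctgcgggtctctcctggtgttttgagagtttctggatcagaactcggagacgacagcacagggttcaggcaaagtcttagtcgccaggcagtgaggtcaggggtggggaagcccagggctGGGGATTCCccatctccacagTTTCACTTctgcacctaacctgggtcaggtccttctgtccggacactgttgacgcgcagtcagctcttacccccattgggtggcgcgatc
H2-D1 promoter, chr17:35262844-35263093 (plus strand): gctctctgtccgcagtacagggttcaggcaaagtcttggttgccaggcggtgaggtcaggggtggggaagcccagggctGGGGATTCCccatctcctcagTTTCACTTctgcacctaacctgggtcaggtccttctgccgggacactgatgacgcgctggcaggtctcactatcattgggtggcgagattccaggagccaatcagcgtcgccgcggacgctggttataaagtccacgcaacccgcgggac
H2-T23 promoter, chr17:36032702-36032951 (minus strand): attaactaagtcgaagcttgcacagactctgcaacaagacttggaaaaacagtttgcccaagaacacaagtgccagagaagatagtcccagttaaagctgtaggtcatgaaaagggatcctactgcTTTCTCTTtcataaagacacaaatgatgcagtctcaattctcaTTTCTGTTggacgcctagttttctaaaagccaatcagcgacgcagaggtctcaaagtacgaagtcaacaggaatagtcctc
B2m promoter, chr2:122147437-122147686 (plus strand): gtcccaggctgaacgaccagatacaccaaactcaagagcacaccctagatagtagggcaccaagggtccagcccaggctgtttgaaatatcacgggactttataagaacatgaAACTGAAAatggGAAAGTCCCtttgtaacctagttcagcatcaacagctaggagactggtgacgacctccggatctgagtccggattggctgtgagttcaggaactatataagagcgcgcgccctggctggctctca
In H2-K1 and H2-D1 the kappaB match stands just before the IRF match, and in B2m the IRF match comes first. H2-T23 has 2 IRF matches and no kappaB match. The IRF letters were in 5 of 7 genes (H2-K1, H2-D1, H2-T23, B2m and Erap1), against 23.9% of all 32851 promoter windows, and the kappaB letters in 3 of 7, against 15.2%. The letters CCAAT, read by NF-Y, were in 6 of 7 (37.4% of all windows), and TGACG, a core of CREB/ATF sites, in 4 of 7 (20.8%). TTCNNNGAA, the core letters of STAT sites, was in 0 of 7 (8.3%). TGACNNNGC, the antioxidant response element read by NRF2, was in H2-K1 alone (12.4%), where it shares 1 base with the TGACG match. RefSeq gives H2-K1 2 transcript starts, the first used for the sequence above and the second for the alignments. The H2-K1 and H2-D1 windows were identical at 180 of 254 aligned bases (70.9%), against 38.6% for H2-K1 and H2-T23. These matches are descriptions of letters; binding was not measured.

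**Figure D1:**
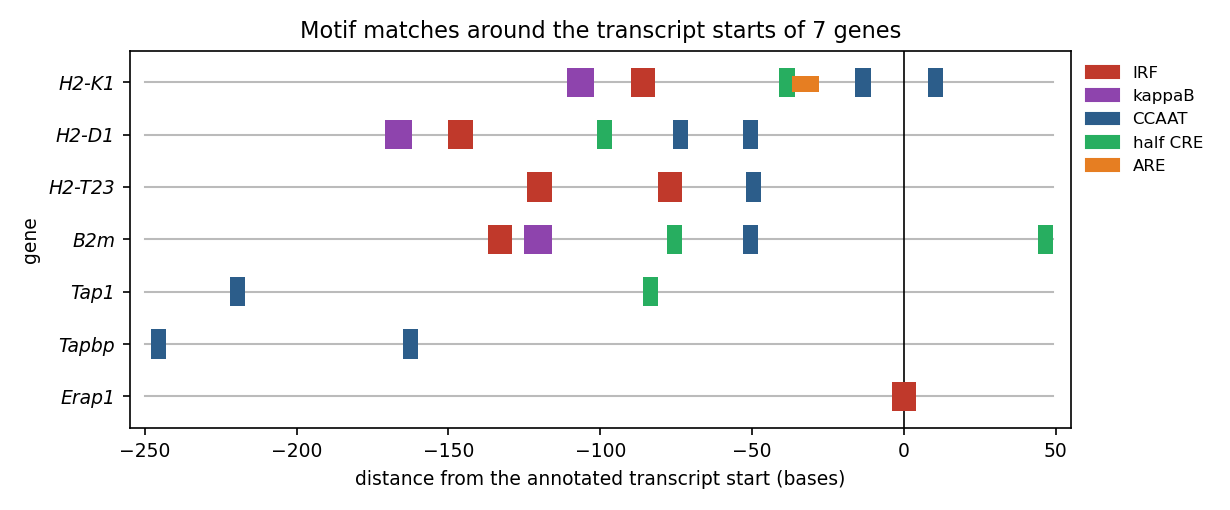
Positions of motif matches around the transcript start of the 7 genes with a promoter entry, in bases from the start, 1 row per gene and 1 colour per motif. The kappaB marks appear in the rows of H2-K1, H2-D1 and B2m only.

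With DEM, RNA was lower for most of the 9 class I presentation genes described here. Of the 9 genes, 7 passed the test as lower with DEM and 0 as higher, against 11.8% of all 24658 genes called lower and 15.5% called higher (limma, adjusted p under 0.05). B2m and Nlrc5 did not pass. Both DEM arrays lay below both untreated arrays for each of the 8 genes well above background on all 4 arrays, as they did for 23.1% of all such genes. The median change over these 8 was -1.43, against 0.20 over all genes under the same filter, on the log2 scale. At an unadjusted p under 0.05, 8 of the 9 were lower and 0 higher, against 16.8% and 24.4% of all genes. Under the other scalings the change of each of the 8 stayed negative, but with scaling to spike-in RNA, where the SEs were larger, H2-K1 was the 1 gene that passed.

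**Figure D2:**
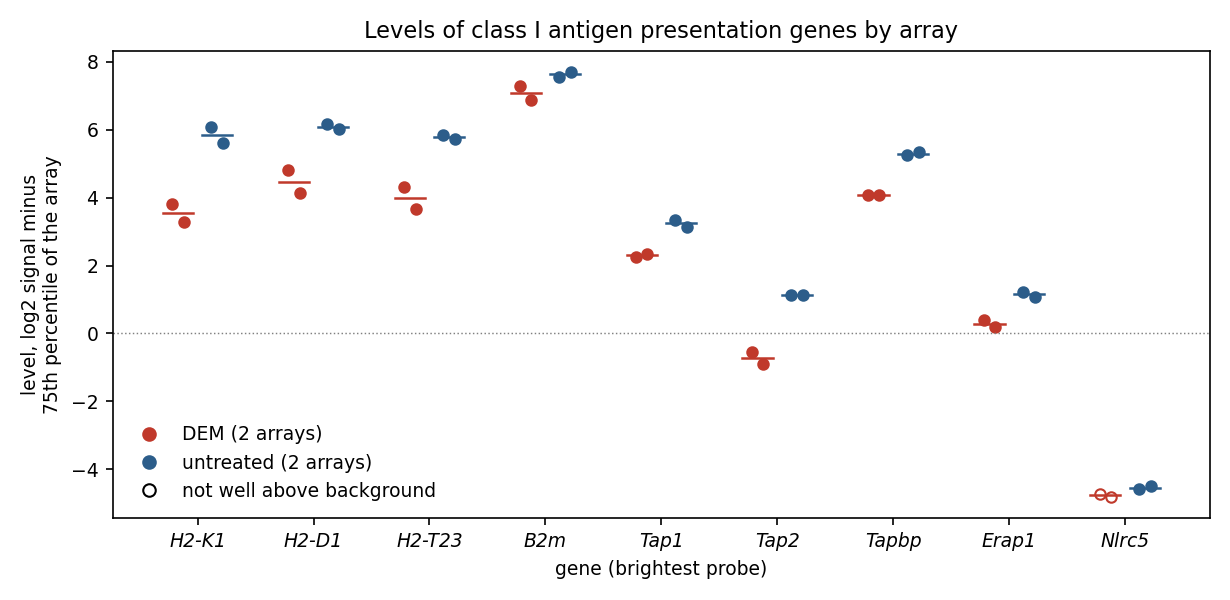
Level of each gene on each array (brightest probe, scaled log2 signal), DEM arrays left of untreated arrays, with a bar at each mean and open points where the probe was not well above background. The DEM points lie below the untreated points for the 8 genes other than Nlrc5, whose DEM points were not well above background.

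The classical heavy chain H2-K1, which presents peptides to CD8 T cells, had levels of 3.80 and 3.27 on the DEM arrays, against 6.08 and 5.61 on the untreated arrays. The 2 groups were apart by more than either pair differed. The change was -2.31 ± 0.25 (SE; adjusted p = 0.00313, limma, n = 2 per group), or 4.96-fold lower, at the 3.24th percentile of changes over all genes. Its other probes, the pair printed above, changed by -1.88 and -2.10 with DEM, and in the fit with each probe as a feature both passed (limma, adjusted p = 0.00623 and 0.00372), as 12.2% of all probes did in that direction. Of the genes described here, H2-K1 had the lowest change, and it alone stayed past the threshold under all 16 alternative settings, with changes between -2.58 and -2.04.

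H2-D1, the second classical heavy chain, had levels of 4.80 and 4.12 on the DEM arrays, against 6.16 and 6.02 on the untreated arrays. It was 3.09-fold lower with DEM (-1.63 ± 0.24, SE; limma, adjusted p = 0.00746). The second H2-D1 probe changed by the same -1.63, with levels of 3.76 and 2.93 on the DEM arrays, against 5.10 and 4.85 on the untreated arrays. In both probes DEM replicate 2 was the lowest array. The H2-D1 call was lost without untreated replicate 1 (limma, adjusted p = 0.0577) and without untreated replicate 2 (adjusted p = 0.052), while the change stayed at -1.55 and -1.70.

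H2-T23 encodes the heavy chain of Qa-1, a non-classical molecule that presents leader peptides of other class I chains to NKG2A receptors on natural killer cells. Its levels were 4.30 and 3.67 with DEM, against 5.83 and 5.71 in untreated cells, and it was 3.44-fold lower with DEM (-1.78 ± 0.23, SE; limma, adjusted p = 0.00509). As with H2-K1 and H2-D1, DEM replicate 2 lay below DEM replicate 1, and neither came near the untreated arrays.

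B2m, the light chain common to these molecules, did not pass. Its brightest probe had levels of 7.28 and 6.87 with DEM, against 7.55 and 7.70 in untreated cells, so the groups were apart by 0.27 at the nearest. The change was -0.55 ± 0.18 (SE; limma, adjusted p = 0.0677), with a 95% interval of -0.99 to -0.11. The second probe changed by -0.25 (95% interval -0.63 to 0.13; limma, adjusted p = 0.278), and its levels were 6.18 and 5.93 with DEM, against 6.31 and 6.30 in untreated cells. B2m passed without DEM replicate 1 (limma, adjusted p = 0.0113), and under 4 other scalings or background corrections it passed with adjusted p-values between 0.0251 and 0.0372.

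A difference between 2 genes on the same array does not depend on a scaling that subtracts 1 value from the whole array. It can depend on quantile or cyclic loess normalization and on background correction. The level of each gene minus that of B2m was therefore compared on each array, centred on the untreated mean. H2-K1 relative to B2m was -1.69 and -1.82 on the DEM arrays, against 0.30 and -0.30 on the untreated arrays. H2-D1 was -0.94 and -1.21 with DEM, against 0.15 and -0.15 in untreated cells, and H2-T23 was -1.12 and -1.34, against 0.13 and -0.13. For all 3 heavy chains the decrease thus exceeded that of B2m on both DEM arrays. This was also so for Tap2 (-1.34 and -1.27 with DEM, against 0.06 and -0.06), Tapbp (-0.89 and -0.46, against 0.04 and -0.04) and Erap1 (-0.41 and -0.20, against 0.14 and -0.14). Tap1 relative to B2m overlapped between groups, at -0.63 and -0.14 with DEM and 0.18 and -0.18 in untreated cells. The Erap1 difference was small under other scalings. With quantile normalization Erap1 changed by -0.89 and B2m by -0.81, and with cyclic loess by -0.99 and -0.88. These differences from B2m were not tested.

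**Figure D3:**
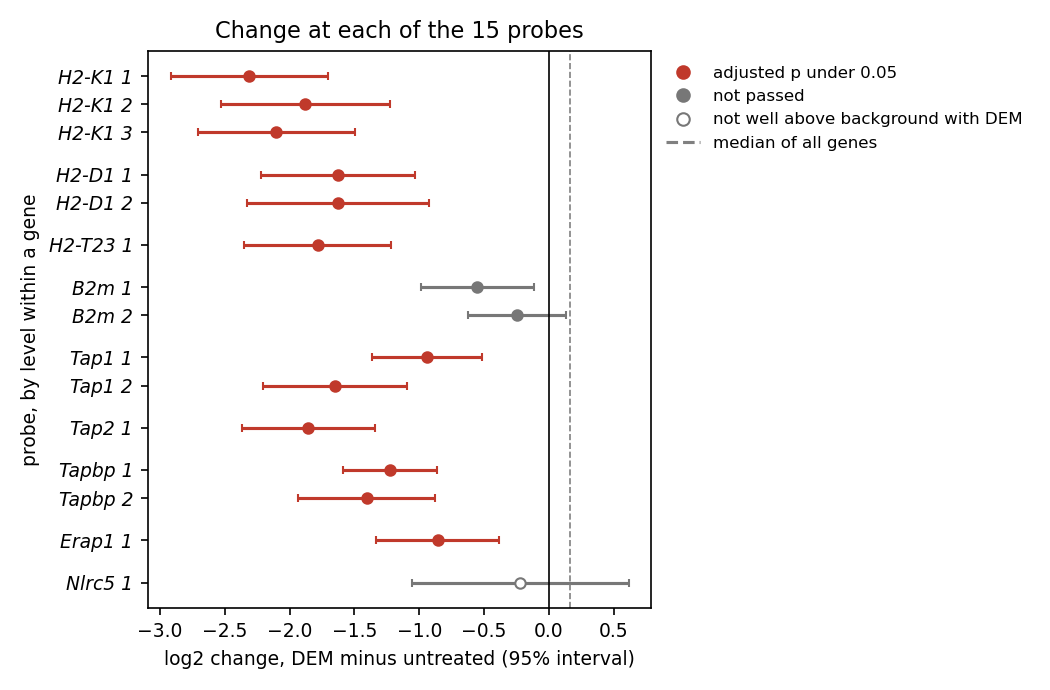
Change at each of the 15 probes, as the log2 difference of DEM minus untreated with its 95% interval, grouped by gene. The 3 H2-K1 probes lie between -2.31 and -1.88, the B2m probes at -0.55 and -0.25.

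Of the transporter, Tap2 had levels of -0.56 and -0.89 with DEM, against 1.12 and 1.14 in untreated cells. The untreated arrays were almost equal and the DEM arrays differed by less than the gap to them. Tap2 was 3.62-fold lower with DEM (-1.85 ± 0.21, SE; limma, adjusted p = 0.00333), at the 4.83rd percentile of changes over all genes. Its single probe leaves this result without a second probe to set beside it.

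Tap1, its partner subunit, had levels of 2.26 and 2.34 with DEM, against 3.34 and 3.14 in untreated cells. The groups did not overlap, and Tap1 was 1.92-fold lower with DEM (-0.94 ± 0.17, SE; limma, adjusted p = 0.0136). The 2 Tap1 probes disagreed in size. The second probe, printed in 8 spots per array, had levels of -2.45 and -2.61 with DEM, against -0.94 and -0.82 in untreated cells, and was 3.14-fold lower (-1.65; limma with each probe as a feature, adjusted p = 0.00573). Both were lower with DEM. The call of the brightest probe was lost without untreated replicate 1 (limma, adjusted p = 0.113) and without untreated replicate 2 (0.0776).

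Tapbp, which bridges the empty class I molecule and TAP, had levels of 4.07 and 4.08 with DEM, against 5.26 and 5.33 in untreated cells. The DEM arrays were almost equal, and Tapbp was 2.34-fold lower with DEM (-1.23 ± 0.15, SE; limma, adjusted p = 0.00402). Its second probe had levels of -0.90 and -1.23 with DEM, against 0.38 and 0.30 in untreated cells, a decrease of 2.65-fold (-1.41; limma with each probe as a feature, adjusted p = 0.00794). The gene-level call was just lost without untreated replicate 2 (limma, adjusted p = 0.0502).

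Erap1, the aminopeptidase that trims peptides in the endoplasmic reticulum, had levels of 0.39 and 0.19 with DEM, against 1.21 and 1.08 in untreated cells. The groups were apart, and Erap1 was 1.81-fold lower with DEM (-0.86 ± 0.19, SE; limma, adjusted p = 0.0236), the smallest change among the 7 genes that passed. The Erap1 call was lost without untreated replicate 1 (limma, adjusted p = 0.168) and without untreated replicate 2 (0.131).

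Nlrc5, the transactivator of class I genes, was at the limit of the array. Its probe had signals of 17.1 and 14.7 with DEM, not well above background on either array, against 29.2 and 33.2 in untreated cells. Scaled levels were -4.72 and -4.81 with DEM, against -4.59 and -4.49 in untreated cells, a change of -0.22 ± 0.34 (SE; limma, adjusted p = 0.658) that turned to 0.49 with normexp background correction (adjusted p = 0.0131). No fold is given, since the DEM level is only a bound.

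**Figure D4:**
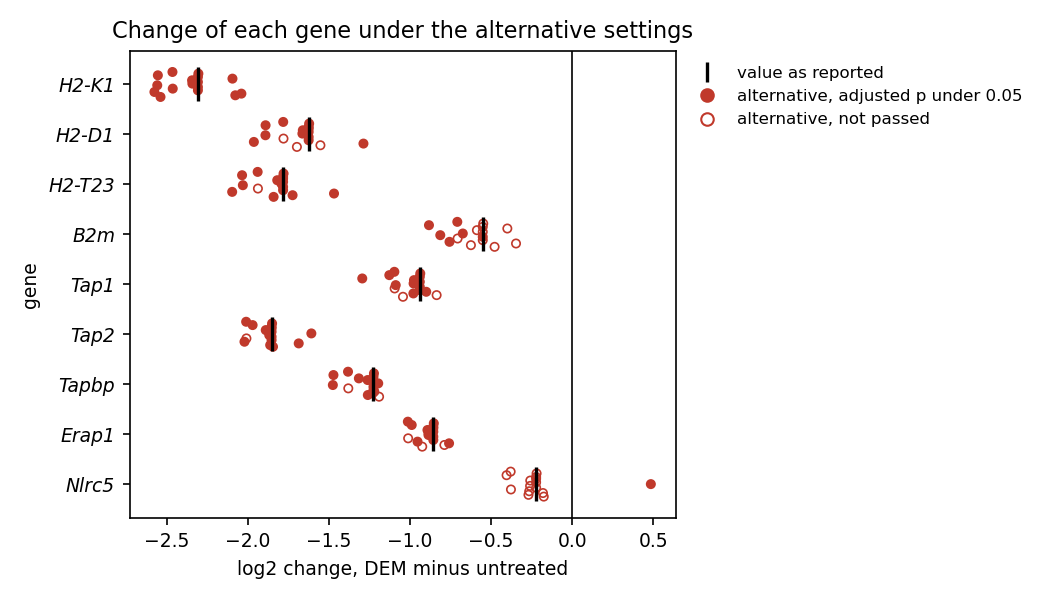
Change of each gene under the alternative settings, as the log2 difference of DEM minus untreated, 1 row per gene, with a black bar at the reported value and filled points where the adjusted p was under 0.05. Nlrc5 alone has a point above 0; H2-K1 spans -2.58 to -2.04.

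The other class I heavy chain genes, mainly of the Q, T and M regions, also had mostly lower RNA with DEM. Of 30 listed, 15 were measured: 11 were lower and 4 missed the threshold, against 11.8% of all genes called lower. None was higher (0 at an unadjusted p under 0.05, limma), against 15.5% of all genes. Some of their probes are close in sequence to the heavy chain probes printed above. The 11 may therefore not be separate signals, which was not tested. The median change was -1.57. H2-K2, a neighbour of H2-K1, was 4.36-fold lower with DEM (limma, adjusted p = 0.00364), and H2-M3, which presents formylated peptides, was 5.03-fold lower (0.00493). H2-T10 and H2-T22, ligands of some gamma-delta T cells, were 2.82-fold and 2.73-fold lower (limma, adjusted p = 0.00373 and 0.00484). The probes of other genes that share runs with those printed above changed by -2.03 (H2-Q10), -1.60 (H2-Bl), -1.70 (H2-Q2) and -1.56 (H2-Q7), against -1.88 and -2.10 for the H2-K1 probes, -1.63 for H2-D1 and -1.78 for H2-T23. These genes were named for that overlap.

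Class I-like molecules with other roles did not move one way. Among 6 measured genes 3 were lower, 1 was higher and 2 missed the threshold, against 11.8% of all genes called lower and 15.5% called higher. Procr, the endothelial protein C receptor, had levels of 5.42 and 5.36 with DEM, against 3.16 and 3.15 in untreated cells, and was 4.71-fold higher (limma, adjusted p = 0.00103). Mr1, which presents vitamin B metabolites, was 2.42-fold lower with DEM, Hfe, which regulates iron uptake, 2.13-fold lower, and Fcgrt, the neonatal Fc receptor, 1.72-fold lower (limma, adjusted p = 0.00755, 0.0326 and 0.0238). None of the 4 measured ligands of the activating receptor NKG2D passed, though 2 were higher at an unadjusted p under 0.05, as were 24.4% of all genes. Raet1a changed by 0.56, Raet1e by 0.49, Ulbp1 by 0.27 and H60a by -0.12 (limma, adjusted p = 0.0726, 0.0854, 0.544 and 0.856).

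Upstream of the transporter, the proteasome genes split. Psmb8, an inducible catalytic subunit of the immunoproteasome, had levels of -1.64 and -2.71 with DEM, against 2.06 and 2.24 in untreated cells, a change of -4.32 (limma, adjusted p = 0.00157). Psmb9, its partner subunit, had levels of -1.71 and -1.09 with DEM, against 2.15 and 2.24 in untreated cells, a change of -3.59 (limma, adjusted p = 0.00108). Both changes were larger than those of any class I gene above, and both calls stood under all 16 alternatives. Psme1, a subunit of the PA28 activator, was 1.92-fold lower with DEM (limma, adjusted p = 0.0151), whereas the constitutive subunits Psmb5 and Psmb6 were 1.83-fold and 2.10-fold higher (0.0351 and 0.00819). Psmb10, Psme2 and the other 2 of the 9 did not pass. Over all genes, 11.8% were called lower and 15.5% higher. Of the 7 cytosolic peptidases, Tpp2, Prep and Npepps rose by 0.92, 0.70 and 0.60 and Blmh changed by -1.10 (limma, adjusted p = 0.0125, 0.0259, 0.0383 and 0.0122). The Prep, Npepps and Psmb5 calls were lost under at least 7 of the 16 alternatives.

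General folding partners of class I in the endoplasmic reticulum mostly missed the threshold. Among 11 measured genes none was lower (0 at an unadjusted p under 0.05, limma), 2 were higher and 9 missed the threshold (median 0.13). By the same test 11.8% of all genes were called lower and 15.5% higher. Hsp90b1, a chaperone of that compartment, rose by 0.72 and the aminopeptidase Lnpep by 1.01 (limma, adjusted p = 0.0164 and 0.0283). Calr, the lectin chaperone calreticulin of the loading complex, had levels of 5.27 and 5.21 with DEM, against 5.23 and 5.66 in untreated cells, a change of -0.20 with a 95% interval of -0.67 to 0.26.

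Among 20 measured regulators of class I transcription, 6 were lower, 5 higher, and 9 missed the threshold. The shares over all genes were 11.8% lower and 15.5% higher. Irf7, an interferon regulatory factor that interferon itself induces, had levels of -3.09 and -4.16 with DEM, the second not well above background, against 0.34 and 1.04 in untreated cells. Its change was -4.31 (limma, adjusted p = 0.00238), and -2.91 with normexp background correction. Irf9 was 3.31-fold and Irf1 1.55-fold lower with DEM (limma, adjusted p = 0.00753 and 0.0391). The NF-Y subunit Nfyb rose by 1.10, the CREB/ATF factors Creb1 and Atf1 by 0.89 and 0.84, and the RFX subunit Rfxap by 0.79 (limma, adjusted p = 0.0104, 0.0139, 0.016 and 0.024). A second Rfxap probe changed by -0.15, and the Rfxap call was lost with the mean of its probes. Rfx5, the DNA-binding RFX subunit, passed as lower (-1.48, limma, adjusted p = 0.0427) and was named after its values were seen. Its levels were -3.22 and -4.31 with DEM, the second not well above background, against -2.19 and -2.36 in untreated cells. The other Rfx5 probe was not well above background on any array. The Rfx5 call was not followed under the alternative settings. The Irf1 call was lost under 6 of the 16 alternatives, DEM replicate 2 left out among them. Of the interferon receptors and their signalling genes, 9 of 14 were measured. Of the 9, 0 rose (2 were higher at an unadjusted p under 0.05, limma), 2 fell, as did 11.8% of all genes, and 7 did not pass. The 2 were the feedback inhibitors Socs3 (-1.18) and Socs1 (-0.62; limma, adjusted p = 0.0119 and 0.0418), and the receptor chains Ifnar1, Ifnar2, Ifngr1 and Ifngr2 did not pass. The interferon genes Ifnb1 and Ifng were not well above background. On the same arrays, 29 of 30 interferon response genes fell, 0 rose (0 at an unadjusted p under 0.05, limma) and 1 did not pass, with a median of -3.05. Here too the shares over all genes were 11.8% lower and 15.5% higher. Ifit1, Ifit3, Dhx58 and Oas1a changed by -3.65, -3.79, -3.70 and -2.74 (limma, adjusted p = 0.000719, 0.00065, 0.00065 and 0.00102).

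Among the genes named from these lists, the calls of H2-K2, H2-M3, H2-T10, Procr, Psmb8, Psmb9, Irf7, Ifit1, Ifit3, Dhx58 and Oas1a stood with any 1 array left out. Those of H2-T22 and Socs3 were lost without untreated replicate 2. Those of Mr1, Hfe, Fcgrt, Psme1, Psmb5, Psmb6, Tpp2, Prep, Npepps, Blmh, Hsp90b1, Lnpep, Irf1, Irf9, Nfyb, Creb1, Atf1, Rfxap and Socs1 were lost without untreated replicate 1 and also without untreated replicate 2. Psmb5 and Irf1 were in addition lost without DEM replicate 2, and Npepps and Socs1 without DEM replicate 1.

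**Figure D5:**
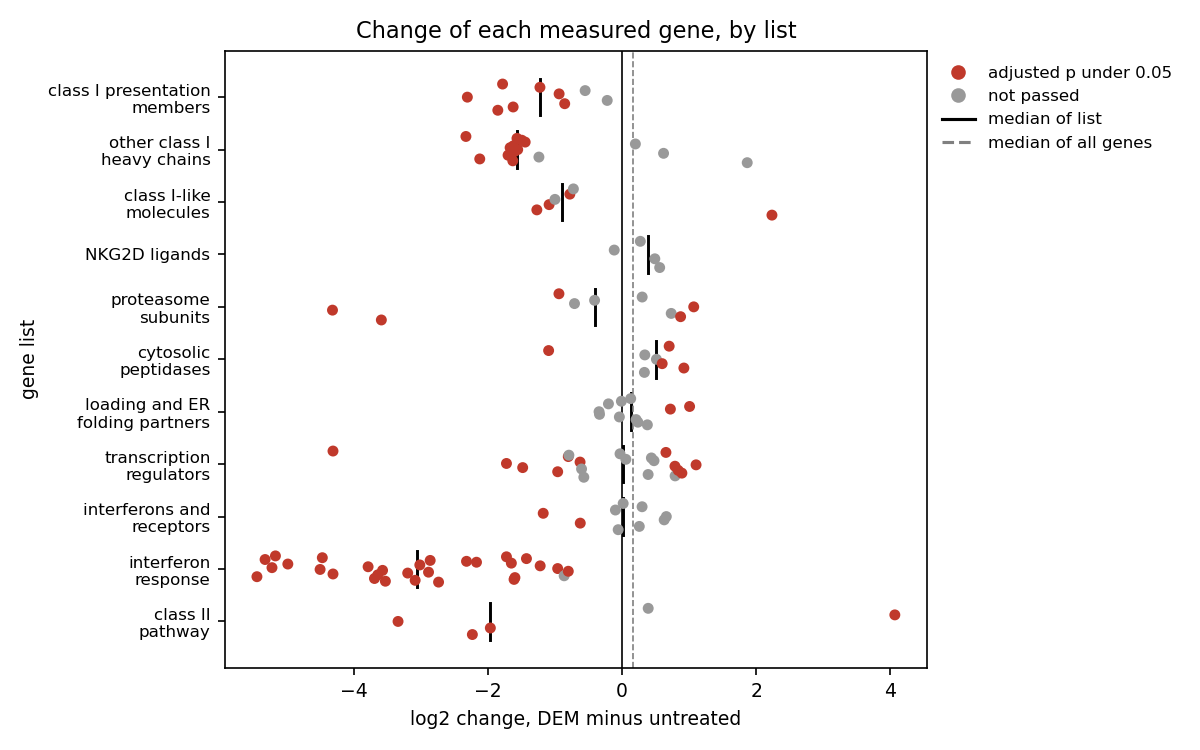
Log2 change (DEM minus untreated) of each measured gene, 1 row per list, with red points for genes that passed and a bar at each median. The class I genes have a median of -1.23 and the interferon response genes of -3.05, while the folding partners centre near 0.13.

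The genes outside these lists whose levels over the 4 arrays lay nearest to the mean profile of the class I genes were Dnmbp, Emb, Peak1, Pcdhb21 and Sdc2. Their root mean square difference from that profile was 0.0301 to 0.0484 on the log2 scale, and their changes with DEM were -1.30, -1.22, -1.19, -1.26 and -1.32. With 4 arrays in 2 groups this likeness mostly means a change of similar size.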

How the data were processed

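RNA (500 ng per sample, per the labels' protocols) was labelled with Cy3. Spot intensity values were deposited as scanner output of Feature Extraction 10.7.3.1, with background subtracted, per the file headers. The authors' deposited log2 values served as an alternative. Control spots (1319 of 62976 per array) and 130 probes marked as outliers were left out, and no spot was saturated. Log2 signals were scaled by subtracting the 75th percentile over the non-control probes of each array. Of 61307 probes, names were updated through the RefSeq gene list of GRCm38.p6 for 28136 (accession), 4982 (symbol) and 1406 (synonym), while 26783 keep the name in the files. Probes well above background (multiplier 13, per the file headers) on 2 or more of the 4 arrays entered (31771), and a gene was represented by its brightest probe (24658 genes). The number of arrays limits the precision.

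DEM was compared with untreated by limma 3.58.1 (R 4.3.3, with the data.table package, version 1.17.8) with lmFit and eBayes with a trend (2 residual and 4.03 prior degrees of freedom), in two-sided tests, with p adjusted over all genes after Benjamini and Hochberg and a threshold of 0.05. The fit was tested on simulated data. Replicate arrays correlated at 0.984 (DEM) and 0.987 (untreated) across probes, and arrays of different groups at 0.964 to 0.968. Alternatives were other background corrections (normexp, offset 50), scalings, filters, probe summaries, the authors' values, no trend, a replicate block and each array left out. Named from each further list were the members that passed, up to 4 with the smallest p per direction, all members of lists with 5 or fewer measured, and the 5 nearest profiles. The genes and lists were chosen with earlier results of these data known. A result that the rule would name is not reported here by name and stays in the counts.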

Additional observations from a re-analysis of the deposited data

How the results depend on the processing

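The 7 genes called lower numbered 8 with normexp, quantile, cyclic loess and detected-probe scaling, 1 with scaling to spike-in RNA (H2-K1, limma, adjusted p = 0.0115), and 3 to 8 with 1 array left out. They numbered 4 without untreated replicate 1 and 3 without untreated replicate 2. Such fits take their variance from the other pair alone. With spike-in scaling the H2-D1 change was -1.78 with an SE of 0.681, against 0.24 otherwise. With normexp, 1 gene (Nlrc5) was higher, at 0.49. H2-DMb2 turned to 0.0081 and H60a to 0.19 with normexp. With 1 array left out H60a lay between -0.57 and 0.34 and Ulbp1 between -0.12 and 0.67.

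Genes called higher over the whole array, 3812, numbered 6465 with normexp, 2529 with cyclic loess, 354 with spike-in scaling, 17297 with no filter on dim probes, and 644 to 4488 with 1 array left out. Those called lower, 2900, numbered 859 with spike-in scaling and 802 to 3814 with 1 array left out. Over the related lists, 14 higher and 54 lower became 9 higher with cyclic loess, 9 with no trend, 34 with no filter, 1 higher and 27 lower with spike-in scaling, and 2 to 15 higher and 27 to 58 lower with 1 array left out. The share of calls that were higher was 56.8%, against 46.6% with quantile normalization, 40.9% with cyclic loess, 42.1% with detected-probe scaling, 70.1% with normexp, 29.2% with spike-in scaling and 84.7% with no filter, where the median of all genes was 0.47.

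The replicate numbers were treated as names in the main fit. The correlation of replicate differences between the groups was 0.184, over 2 pairs, which cannot show whether the arrays are paired. With a replicate block 8 of the class I genes were lower, B2m being the one gained (limma, adjusted p = 0.0348), and 4473 genes were higher and 3378 lower. The filter for all 4 arrays drops Nlrc5. Signal over background limits Nlrc5 and the interferon genes.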

Other observations

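The class II pathway, which loads peptides in endosomes of antigen-presenting cells, had 5 of 12 genes measured, and Ciita, its transactivator, was not well above background. H2-DMb1, part of the peptide exchange factor DM, had levels of -3.52 and -3.66 with DEM, against -1.33 and -1.37 in untreated cells, and was 4.71-fold lower (limma, adjusted p = 0.00297). H2-DMa, the other DM chain, changed by 0.39 (limma, adjusted p = 0.335), and H2-DMb2 was at least 1.51-fold lower (0.0133). The H2-DMb2 call was lost with spike-in scaling and without either untreated array, and its change was 0.0081 with normexp background correction.

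Cd74, the invariant chain that escorts class II, had levels of -0.33 and -3.30 on the DEM arrays, against 1.35 and 1.71 on the untreated arrays (-3.34; limma, adjusted p = 0.0383). The DEM arrays were further apart than DEM replicate 1 was from the untreated arrays, and the other Cd74 probes gave the same pattern. The call was lost without either untreated array, without a trend and with no filter on dim probes. One H2-Aa probe was well above background on DEM replicate 1 alone, at -1.26, against -5.83 on DEM replicate 2 and -7.04 and -6.96 on the untreated arrays.

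H2-Ab1, a class II beta chain, went the other way. Its brightest probe had levels of -2.25 and -2.37 with DEM, against -5.70 and -7.06 in untreated cells, at least 5.65-fold higher (limma, adjusted p = 0.00439). The other 2 H2-Ab1 probes were not well above background on any array, so the increase rests on 1 probe.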
